A study of Oncorhynchus mykiss with 6 samples.

Results

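The 33 long non-coding RNAs (lncRNAs) described here are the known lncRNAs from the later part of the deposited list that were abundant in trout liver. They carry RefSeq XR_ numbers of 002469850 or more, and each reached at least 5 FPKM (fragments per kilobase of length and M fragments sequenced, M being 1000000) in heat replicate 2 and in control replicates 2 and 3, the libraries whose tables were complete. They are 33 of 3485 known lncRNAs from that number on, of 4989 known lncRNAs and of 5916 lncRNAs in all. Because these levels chose them, the levels are given as a description, and where heat and control rest on the same 3 tables alone, their difference is a description too.

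Livers came from female rainbow trout (Oncorhynchus mykiss, a cold-water salmonid) aged 150 days. The heat group comprised 3 libraries from fish brought to 24 °C in steps of 1 °C per 24 h. The control group comprised 3 libraries from fish kept at 18 °C. Neither group carried any other treatment in the labels. The protocols name 12 fish and mention mixing of the RNA, so a library may be a pool, and the p-values below rest on differences between libraries that may be technical. Ribosomal RNA was depleted and cDNA was primed at random, so RNA without a poly(A) tail could be captured. The tables held lncRNAs alone, so the liver label was not checked against protein-coding markers here. The stated purpose of the comparison was to find lncRNAs induced by heat.

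LncRNAs are transcripts with no recognised protein-coding frame. Some act in the nucleus on the transcription of neighbouring genes, others bind proteins or other RNAs in the cytoplasm, and for most of those predicted in fish genomes no role is known. An XR_ number marks a transcript predicted by RefSeq from genome sequence and RNA evidence, and the number itself says nothing of position or function. No role is known here for any of the 33, so they are ordered below by the number of libraries that list them and then by level.

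Library totals implied by the FPKM values were 28.3 and 39.0 M fragments in heat replicates 2 and 3, and 27.9, 29.97 and 28.6 M in control replicates 1 to 3. The table used here for heat replicate 1 ends before the first of the 33. Of the 33, 5 were listed in 5 libraries (heat replicates 2 and 3 and all controls), 8 in 4 libraries (without control replicate 1) and 20 in the 3 complete tables alone. A lncRNA beyond the end of a table was not measured here and was never taken as 0. All 33 had enough reads to be tested.

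Most lncRNAs in this part of the list had no reads at this depth, with a median of 0 FPKM in each complete table. Reads were found for 988 of 3485 (28.4%) in heat replicate 2, against 1110 (31.9%) and 1065 (30.6%) in control replicates 2 and 3. The 33 lay far above this, with mean levels over the complete tables of 6.04 to 51914 FPKM and a median of 23.9 FPKM. There were 8 at a mean of 100 FPKM or more, 19 between 10 and 100 FPKM and 6 under 10 FPKM. Their lengths, worked out from reads and FPKM, ran from 223 to 3904 bases with a median of 872 bases, and 9 were shorter than 500 bases. The plot of levels by library shows the order.

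**Figure D1:**
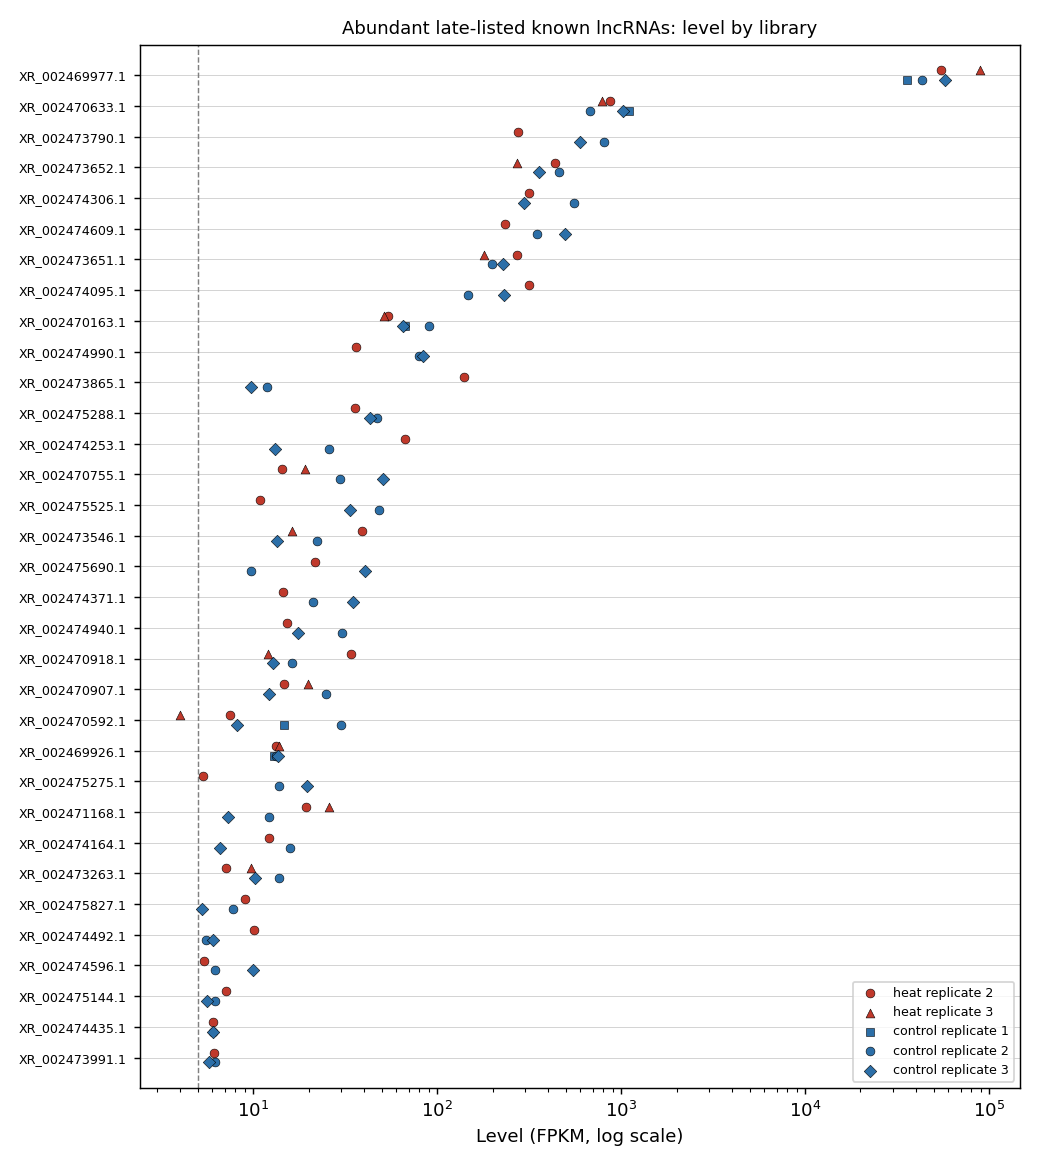
Level of each of the 33 lncRNAs in each library that lists it (FPKM, log axis), ordered by the mean over the complete tables; red symbols above each line are heat libraries, blue symbols below it are controls, and the dashed line marks 5 FPKM. XR_002469977.1 stands far to the right at 35952 to 89762 FPKM, and XR_002473865.1 has its heat value of 139.7 FPKM well to the right of both controls.

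One transcript, XR_002469977.1, 1492 bases long, outweighed the rest. It had no entry in the reference table, so its listing as a lncRNA was not checked here, and every share of lncRNA reads below rests on that listing. It reached 54851 and 89762 FPKM in heat replicates 2 and 3, against 35952, 43101 and 57791 FPKM in control replicates 1 to 3. Its mean over the complete tables was 60.6 times that of the next of the 33. Heat replicate 3 was the highest of the 5 libraries, and heat replicate 2 lay below control replicate 3, so the groups overlapped. The transcript alone took 8.18% and 13.4% of all fragments in heat replicates 2 and 3, against 5.36%, 6.43% and 8.62% in control replicates 1 to 3 (the widest 95% Wilson interval was 13.38% to 13.40%, in heat replicate 3, and such intervals cover counting error only).

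Within the complete tables, the 33 together took 63.0% of all estimated lncRNA reads in heat replicate 2 (95% Wilson interval 62.98% to 63.07%), against 57.9% (57.89% to 57.99%) and 70.96% (70.91% to 71.01%) in control replicates 2 and 3. The value in the heat library lay between the 2 controls. XR_002469977.1 accounted for 59.1% of lncRNA reads in heat replicate 2, against 53.5% and 66.3% in the controls. The other 32 took 3.92% of lncRNA reads in heat replicate 2, against 4.39% and 4.70% in control replicates 2 and 3. XR_002469977.1 makes up most of that denominator. Of the library total the other 32 took 0.543% in heat replicate 2, against 0.528% and 0.611% in control replicates 2 and 3. On that scale the heat library lay between the controls.

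**Figure D2:**
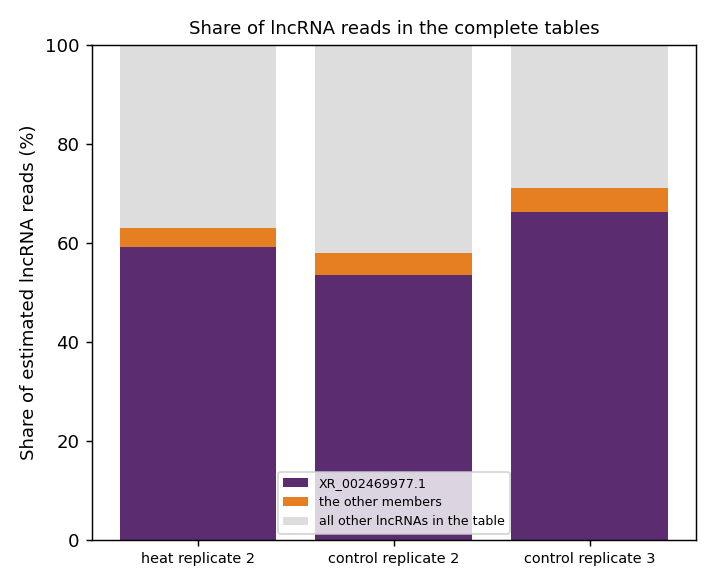
Share of all estimated lncRNA reads (percent, from 0 to 100) in the 3 complete tables, split into XR_002469977.1, the other 32 of the 33 and all remaining lncRNAs. XR_002469977.1 fills 59.1% of the bar of heat replicate 2, against 53.5% and 66.3% in the control bars.

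Heat was compared with control by edgeR's quasi-likelihood test on the estimated counts, fitted on all lncRNAs listed in the same libraries, with p-values adjusted over all of them. Of the 13 lncRNAs listed in 4 or 5 libraries, none passed the threshold of 0.05 in the main edgeR fits or with DESeq2. Of them, 2 had an unadjusted edgeR p under 0.05. EdgeR settings that called any of the 13 are given at the end. The other 20 rest on the 3 libraries that chose them and on 1 heat library, so their fitted values are given as a description. The fits of the 13 also include the libraries that chose them. The minimum of 5 FPKM was set on the level and not on the difference, but it applied to heat replicate 2 and control replicates 2 and 3 alike, so a lncRNA that was near silent in either group could not be among the 33. Fold changes are heat over control on the log2 scale with a standard error (SE).

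The scaling shifts the fold changes of all 33, large and small, and can turn the sign of small ones. The fits used TMM factors, which scale each library on its lncRNAs, whereas FPKM uses the library totals. With the library totals in place of TMM, the median log2 fold change of all lncRNAs tested shifted by -0.36 in the 5-library fit, by -0.34 in the 4-library fit and by -0.35 in the 3-library fit. The number of the 33 with a fold change above 0 was 19 with TMM and 14 with the library totals. The sign turned for 5 of them (XR_002470633.1, XR_002473652.1, XR_002475690.1, XR_002470907.1 and XR_002474435.1), and no direction is read from their fitted values.

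**Figure D3:**
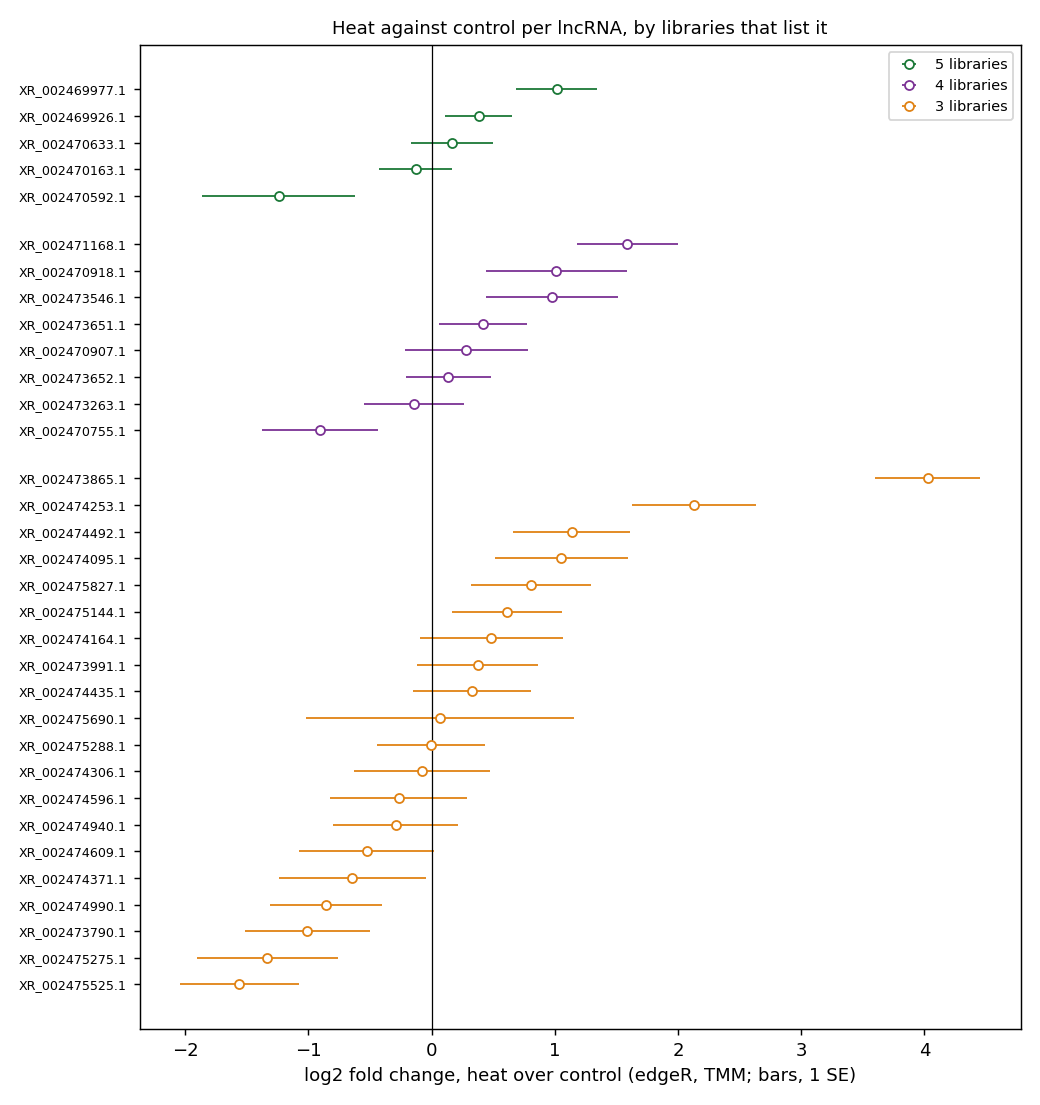
Log2 fold change of heat over control for each of the 33 lncRNAs (edgeR with TMM; bars, 1 SE), grouped by the number of libraries that list it; values of the 3-library group rest on 1 heat library. XR_002473865.1 stands at 4.03, and the others lie between -1.56 and 2.13.

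Among the 5 lncRNAs listed in 5 libraries, none was called in the main edgeR fit or by DESeq2. An unadjusted edgeR p under 0.05 was reached by 1 of them (21.2% of all tested). In the main fit 8.82% of the 340 lncRNAs tested in these libraries were called (5.88% higher and 2.94% lower in heat). With a control left out the filter was rerun. The 30 calls of 340 became 10 of 304 without control replicate 1 and 7 of 300 without control replicate 3. Without control replicate 2 there were 30 of 296. This share is thus itself unstable. With the library totals the calls over the 340 were 17 higher and 15 lower, in place of 20 and 10 with TMM. The median log2 fold change was 0.16 for the 5 and -0.05 for all 340 with TMM, and -0.17 and -0.42 with the library totals. The FPKM values of heat and control did not overlap for 2 of the 5, as for 44.7% of the 340, and in both the heat values were the lower ones, as for 30.3% of the 340.

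XR_002469977.1, whose values are given above, had the most positive log2 fold change of the 5, 1.01 ± 0.33 SE with TMM (edgeR unadjusted p = 0.021, adjusted p = 0.15). With the library totals it was 0.66 (edgeR adjusted p = 0.27), as was the log2 ratio of mean FPKM. The transcript had 2315856 and 5225451 reads in heat replicates 2 and 3, so counting error is far smaller than the spread between libraries. With TMM, leaving out heat replicate 2 gave a log2 fold change of 1.28 and leaving out heat replicate 3 gave 0.44, so its size rests on heat replicate 3. XR_002470633.1 (LOC110504686), 3726 bases long and second in level, stood at 872 and 789 FPKM in heat replicates 2 and 3, against 1110, 678 and 1020 FPKM in control replicates 1 to 3. Both heat values lay inside the range of the controls (log2 fold change 0.16 ± 0.33 SE with TMM, edgeR adjusted p = 0.82, and -0.17 with the library totals).

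XR_002470163.1, 445 bases long, stood at 53.8 and 51.7 FPKM in heat replicates 2 and 3, against 66.6, 90.2 and 65.3 FPKM in control replicates 1 to 3. Both heat FPKM values lay below all controls. The log2 fold change was -0.13 ± 0.30 SE with TMM (edgeR adjusted p = 0.83). With the library totals, which FPKM also uses, it was -0.49 (edgeR adjusted p = 0.41). XR_002470592.1, only 245 bases long, stood at 7.50 and 3.98 FPKM in heat replicates 2 and 3, against 14.8, 30.1 and 8.14 FPKM in control replicates 1 to 3. It was the only one of the 13 lncRNAs listed in heat replicate 3 that stood under 5 FPKM there. Its heat libraries were the lowest of the 5 and rested on 52 and 38 reads, but the controls were 3.70-fold apart (log2 fold change -1.24 ± 0.62 SE with TMM, edgeR adjusted p = 0.31). With the library totals the log2 fold change was -1.63 (edgeR adjusted p = 0.21).

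XR_002469926.1, 867 bases long, varied least among the 5. It stood at 13.4 and 13.8 FPKM in heat replicates 2 and 3, against 13.0, 13.4 and 13.6 FPKM in control replicates 1 to 3. Its coefficient of variation between controls was 1.96%, below the 5.37% to 5.63% that counting error alone gives for its control reads. Its log2 fold change was 0.38 ± 0.27 SE with TMM (edgeR adjusted p = 0.44), and the ratio of mean FPKM was 1.02. With the library totals the log2 fold change was 0.03.

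Among the 8 lncRNAs listed in 4 libraries, none was called in the main edgeR fit or by DESeq2. An unadjusted edgeR p under 0.05 was reached by 1 of them (19.9% of all tested). In the main fit 1.95% of the 462 lncRNAs tested in these libraries were called. The 9 calls over the 462 did not hold when a library was left out, except for control replicate 2. Each such fit leaves 1 library in a group. The median log2 fold change was 0.35 for the 8 and -0.03 for all 462 with TMM, and -0.01 and -0.38 with the library totals. Heat and control FPKM did not overlap for 3 of the 8, as for 56.1% of the 462.

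XR_002471168.1 (LOC110507692), the longest of the 33 at 3904 bases, had the lowest p of the 8. It stood at 19.3 and 25.7 FPKM in heat replicates 2 and 3, against 12.1 and 7.34 FPKM in control replicates 2 and 3. Both heat libraries lay above both controls, and the difference missed the threshold over the 462 tested (log2 fold change 1.59 ± 0.41 SE, edgeR unadjusted p = 0.012, adjusted p = 0.13). Of the alternatives run, it passed only where low counts were not filtered out (log2 fold change 1.56, edgeR adjusted p = 0.0033). With the library totals the log2 fold change was 1.21 (edgeR adjusted p = 0.21).

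XR_002470755.1 (LOC110505414), 1206 bases long, pointed the other way. It stood at 14.4 and 19.2 FPKM in heat replicates 2 and 3, against 29.7 and 50.5 FPKM in control replicates 2 and 3. Both heat libraries lay below both controls, with a log2 fold change of -0.91 ± 0.47 SE that was not past the threshold (edgeR adjusted p = 0.40). With the library totals the value for XR_002470755.1 was -1.26 (edgeR adjusted p = 0.22). The closest protein-coding gene listed by RefSeq is foxa2, a forkhead transcription factor gene active in liver and other endoderm, and the gene on its other side is pax1a. Some of its reads were fractional, which can arise when reads match several transcripts.

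The heat libraries of XR_002470918.1 and XR_002473546.1 stood far apart. XR_002470918.1, 1171 bases long, stood at 34.2 and 12.0 FPKM in heat replicates 2 and 3, against 16.2 and 12.8 FPKM in control replicates 2 and 3. XR_002473546.1, 1699 bases long, stood at 39.1 and 16.3 FPKM in heat replicates 2 and 3, against 22.3 and 13.5 FPKM in control replicates 2 and 3. In both, heat replicate 2 was the highest of the 4 libraries. Heat replicate 3 lay below both controls for XR_002470918.1 and between them for XR_002473546.1. Their log2 fold changes were 1.01 ± 0.57 and 0.97 ± 0.54 SE with TMM (edgeR adjusted p = 0.44 and 0.43). With the library totals they were 0.67 and 0.63. With TMM but without heat replicate 2 they were 0.22 and 0.36. In the 3-library fit, where heat replicate 2 is the only heat library, the values were 1.58 ± 0.42 and 1.47 ± 0.46 SE.

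XR_002473651.1 and XR_002473652.1, with consecutive numbers and lengths of 326 and 314 bases, were the most abundant of the 8. XR_002473651.1 stood at 269.9 and 178.8 FPKM in heat replicates 2 and 3, against 199.2 and 226.8 FPKM in control replicates 2 and 3. XR_002473652.1 stood at 436 and 271 FPKM in heat replicates 2 and 3, against 462 and 358 FPKM in control replicates 2 and 3. For XR_002473651.1 heat replicate 2 lay above both controls and heat replicate 3 below both, and for XR_002473652.1 heat replicate 3 lay below both. Heat and control overlapped for both lncRNAs (log2 fold changes 0.42 ± 0.36 and 0.14 ± 0.35 SE with TMM, edgeR adjusted p = 0.61 and 0.90). With the library totals the log2 fold changes were 0.08 and -0.21. Both held fractional reads in every library, and whether reads were divided between them was not tested. Their summed reads were not whole numbers either. The sums were 6365.8 and 5590.59 in heat replicates 2 and 3, against 6289.15 and 5329.64 in control replicates 2 and 3. XR_002473651.1 took 39.1% and 40.7% of the reads of the pair in heat replicates 2 and 3, against 30.9% and 39.7% in control replicates 2 and 3. The pair summed to 706 and 449 FPKM in heat replicates 2 and 3, against 661 and 585 FPKM in control replicates 2 and 3, so the sum also overlapped.

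The remaining 2 of the 8 were lower in level. XR_002473263.1 (LOC110522178), whose gene span overlaps that of epb41l2 (a protein 4.1 family gene of the membrane skeleton) in the reference table (overlap of exons was not tested), stood at 7.09 and 9.73 FPKM in heat replicates 2 and 3, against 13.8 and 10.3 FPKM in control replicates 2 and 3. Its FPKM values did not overlap. Its log2 fold change was -0.14 ± 0.41 SE with TMM (edgeR adjusted p = 0.92) and -0.52 with the library totals (edgeR adjusted p = 0.53). With TMM it turned to 0.18 without heat replicate 2. XR_002470907.1, 357 bases long, stood at 14.7 and 19.8 FPKM in heat replicates 2 and 3, against 24.9 and 12.2 FPKM in control replicates 2 and 3, with both heat values between the controls.

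For the 20 lncRNAs listed in the complete tables alone, heat rests on 1 library, heat replicate 2, which the fit assumes to vary as the controls do. In that fit 1 of 20 was past the threshold, higher in heat, and 0 lower, beside 1.39% of the 1511 lncRNAs tested (1.06% higher and 0.331% lower in heat). An unadjusted edgeR p under 0.05 was reached by 3 of the 20, as by 18.1% of the 1511. The median log2 fold change was 0.03 for the 20 and -0.19 for all 1511 with TMM, and -0.28 and -0.54 with the library totals. The heat FPKM lay above both controls for 6 of the 20 and below both for 10, as for 28.9% and 46.3% of the 1511. The 10 include XR_002474435.1, at 6.05 FPKM in heat replicate 2 against 6.06 FPKM in each control. The 1 past the threshold was XR_002473865.1. Its place there changed with the scaling and the model, so it is not read as a result. The libraries of this fit are those that chose the 33, so nothing is read from these shares, and the fitted values below carry no test.

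XR_002473865.1 (LOC110526055), 919 bases long, differed most. It stood at 139.7 FPKM in heat replicate 2, against 11.95 and 9.71 FPKM in control replicates 2 and 3, from 3633 reads in heat and 329 and 255 reads in the controls. The heat value was 12.9 times the control mean, and the controls lay close together. The log2 fold change was 4.03 ± 0.43 SE, and it ran from 3.58 to 4.09 over the alternatives. It was 3.69 with the library totals and 3.97 with XR_002469977.1 left out before scaling. No other heat library listed XR_002473865.1, so the size of the difference has no replicate in heat. In the RefSeq gene table its span overlaps LOC110526054, a protein-coding gene. Overlap of their exons and the strand of the reads were not tested.

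XR_002474253.1 (LOC110528444), 872 bases long, came next. It stood at 66.9 FPKM in heat replicate 2, against 25.9 and 13.2 FPKM in control replicates 2 and 3. The heat value lay above both controls, which were themselves 1.96-fold apart (log2 fold change 2.13 ± 0.50 SE). The closest coding gene is abhd14a, of the alpha/beta hydrolase family. XR_002474492.1, 602 bases long, stood at 10.2 FPKM in heat replicate 2, against 5.54 and 6.04 FPKM in control replicates 2 and 3 (log2 fold change 1.14 ± 0.47 SE). XR_002474095.1, 1197 bases long, stood at 315 FPKM in heat replicate 2, against 147 and 231 FPKM in control replicates 2 and 3 (log2 fold change 1.05 ± 0.54 SE). For these 3 the heat value was the highest of the 3 libraries. With the library totals their log2 fold changes were 1.77, 0.81 and 0.74 in the order given.

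On the other side, XR_002475525.1 (LOC110536932), 1181 bases long, had the lowest log2 fold change. It stood at 10.95 FPKM in heat replicate 2, against 48.5 and 33.5 FPKM in control replicates 2 and 3 (log2 fold change -1.56 ± 0.49 SE). It lies between alpk2, an alpha kinase gene, and nedd4l, a ubiquitin ligase gene that acts on sodium channels in mammals. XR_002475275.1, 437 bases long and with fractional reads, stood at 5.31 FPKM in heat replicate 2, against 13.8 and 19.7 FPKM in control replicates 2 and 3 (log2 fold change -1.33 ± 0.58 SE). In both the heat value was less than any control value. With the library totals their log2 fold changes were -1.90 and -1.65.

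Some of the most abundant of the 20 also had their lowest value in heat replicate 2, as did 46.3% of the 1511. XR_002474095.1, given above and also among the most abundant, had its highest value there. XR_002473790.1 (LOC110525653), 611 bases long and next in level after XR_002470633.1, stood at 276 FPKM in heat replicate 2, against 808 and 601 FPKM in control replicates 2 and 3 (log2 fold change -1.01 ± 0.51 SE). XR_002474990.1 (LOC110533596), 505 bases long, stood at 36.0 FPKM in heat replicate 2, against 79.7 and 83.9 FPKM in control replicates 2 and 3 (log2 fold change -0.85 ± 0.46 SE). XR_002474609.1, 1053 bases long, stood at 235 FPKM in heat replicate 2, against 350.02 and 492 FPKM in control replicates 2 and 3 (log2 fold change -0.53 ± 0.55 SE). In all 3 the heat value was below both controls. With the library totals their log2 fold changes were -1.35, -1.18 and -0.84 in the order given. XR_002474306.1, 1801 bases long, stood at 316 FPKM in heat replicate 2, against 556 and 296 FPKM in control replicates 2 and 3, so the heat value lay between the controls.

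The spread between controls limits what 1 heat library can show. Over the 33, the log2 ratio of heat replicate 2 to the mean of control replicates 2 and 3 ran from -1.90 to 3.69. The log2 ratio of control replicate 3 to control replicate 2 ran from -1.89 to 2.06. The heat ratio had a size of 1 or more for 10 of the 33, and the control ratio for 4. The median sizes were 0.64 and 0.51. The ratios are unlike measures, since the heat ratio is taken to a mean and the control ratio to a single library. Heat replicate 2 lay above both of these controls for 10 of the 33 and below both for 14, beside the 28.9% and 46.3% of the 1511, and between them for 9. The 14 include XR_002474435.1, whose heat value was 6.05 FPKM against 6.06 FPKM in each control. These are the libraries that chose the 33, so the counts are a description.

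**Figure D4:**
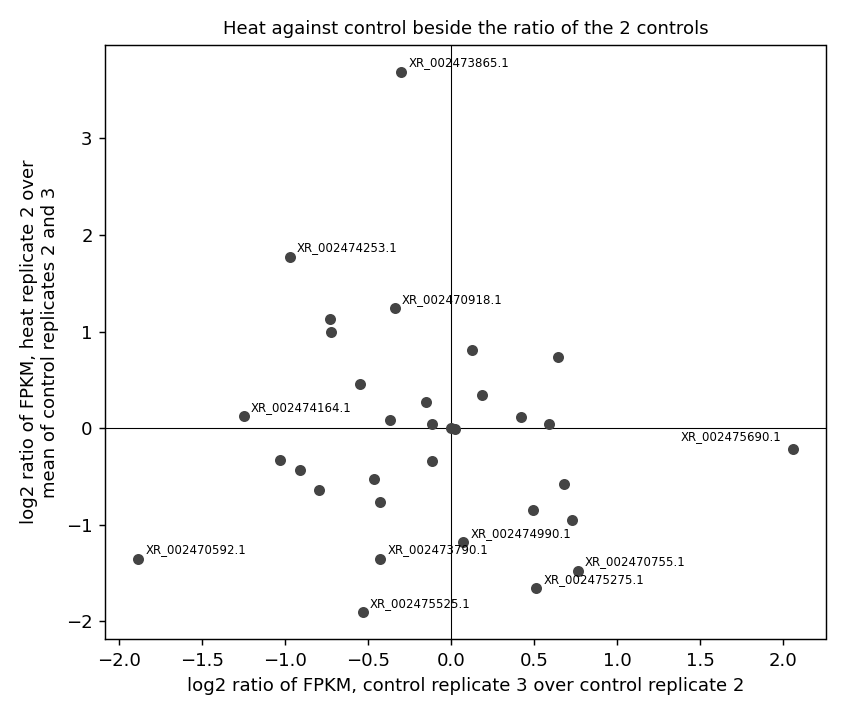
Each point is 1 of the 33 lncRNAs: the log2 FPKM ratio of control replicate 3 to control replicate 2 (horizontal axis) and of heat replicate 2 to the mean of these controls (vertical axis). XR_002473865.1 stands apart at the top at 3.69, and XR_002475690.1 has the widest control ratio at 2.06 with a heat value near that of the control mean.

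XR_002475690.1 (LOC110537963), 594 bases long, was the least stable. It stood at 21.6 FPKM in heat replicate 2, against 9.72 and 40.5 FPKM in control replicates 2 and 3, so the controls differed 4.17-fold with the heat value between them (coefficient of variation 86.7%). It lies beside prl, the prolactin gene, and its nearest protein-coding gene is si:dkey-16p21.7. XR_002474164.1, 2261 bases long, stood at 12.2 FPKM in heat replicate 2, against 15.8 and 6.64 FPKM in control replicates 2 and 3 (coefficient of variation 57.7%). At the other end, XR_002474435.1, 964 bases long, stood at 6.05 FPKM in heat replicate 2, against 6.06 FPKM in each of control replicates 2 and 3. The median coefficient of variation over all controls that list a lncRNA was 24.4% for the 33.

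The lowest members show where the minimum of 5 FPKM falls. XR_002475827.1 stood at 8.97 FPKM in heat replicate 2, against 7.74 and 5.29 FPKM in control replicates 2 and 3. XR_002474596.1 stood at 5.42 FPKM in heat replicate 2, against 6.23 and 9.99 FPKM in control replicates 2 and 3. These and XR_002475275.1 had the smallest margins inside. Just outside were XR_002475040.1 with a lowest value of 4.97 FPKM, XR_002471527.1 with 4.63 FPKM and XR_002474869.1 with 4.54 FPKM. The remaining 5 of the 33 (XR_002473991.1, XR_002474371.1, XR_002474940.1, XR_002475144.1 and XR_002475288.1) had log2 fold changes between -0.64 and 0.61 with TMM. With the library totals these lay between -0.95 and 0.27.

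The same minimum in the complete tables was met by 33 of 3485 later known lncRNAs (0.947%), by 12 of 1504 earlier known ones (0.798%) and by 20 of 927 assembled ones (2.16%). The median level was 23.9 FPKM for the 33, 11.5 FPKM for the earlier known and 17.0 FPKM for the assembled lncRNAs. The median length was 872 bases for the 33, against 1406 and 1440 bases. Fractional reads occurred in 9 of the 33 (27.3%), against 7 of 12 (58.3%) and 11 of 20 (55.0%). The median coefficient of variation between control replicates 2 and 3 was 24.9% for the 33, against 15.5% and 12.1%. These are descriptions of lists, with no test of the difference.

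Of the 33, 12 (36.4%) matched a gene in the reference table, as did 27.5% of all known lncRNAs, and 12 of 12 are annotated there as lncRNA. The other 21, XR_002469977.1 among them, had no entry and are given by their numbers alone. The gene span of 2 of the 12 overlaps that of a protein-coding gene. None of the 12 had a gene of the chaperone, plasma protein, lipid and sterol, ribosome or iron and redox lists as its nearest protein-coding gene, but many of the neighbours carry LOC symbols, under which a gene of these lists would be missed.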

How the data were processed

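The deposited tables give, per lncRNA and library, an estimated count of reads, not normalized, and an FPKM value scaled by the authors per kilobase and per M fragments, per the file headers and values. Reads were aligned with Bowtie2 2.2.8 and TopHat2 2.1.1, per the submitters' processing notes. The sources used here do not name the quantifier, the genome build or the strand setting. The extraction protocol names retinas, whereas the tissue label is liver. The tables used here for control replicate 1 and heat replicates 1 and 3 end inside a line, after 2186, 1498 and 3413 lncRNAs, and the broken line was dropped. Library totals came from count, FPKM and exon lengths of assembled lncRNAs with at least 300 reads in control replicate 2, and from ratios to that library for the others. Lengths followed from the totals.

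Rounded estimated counts went into edgeR 4.0.16 under R 4.3.3 (TMM factors, low counts removed by filterByExpr at a minimum of 10, robust quasi-likelihood F test, two-sided, Benjamini-Hochberg over all lncRNAs tested, threshold 0.05). The SE is the fold change divided by the square root of F. Each lncRNA is quoted from the fit with most libraries that list it, using heat replicates 2 and 3 and control replicates 1 to 3 (340 tested), 2 and 3 of each group (462), or the complete tables (1511). Alternatives used DESeq2 1.42.0, limma 3.58.1 on log2 FPKM, other scalings and filters, a replicate block and each library left out. Gene names came from RefSeq assembly USDA_OmykA_1.1 by accession without version. Its build may differ from that of the tables, so no coordinates are given.

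The 33 lncRNAs, the gene lists and the tests were chosen with earlier results of these data known. The lncRNAs named with full values are those called, the 10 highest in level, up to 3 rises and 3 falls per fit, those at the edge of the minimum and the 3 most variable between controls (26 of 33). Others were named for completeness.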

Additional observations from a re-analysis of the deposited data

How the results depend on the processing

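Heat replicate 1 lists none of the 33 lncRNAs, and 20 of them rest on 1 heat library, which is the main limit. Of 274 alternative log2 fold changes of the 26 lncRNAs named by rule, the sign turned in 16, 4 of them without a test, over 7 lncRNAs. Values that kept their side of the threshold are not counted, since nearly all of the 26 were uncalled in the main fits. The cause of the changes below was not tested. XR_002470633.1 (0.16) was at -0.17 with the library totals and -0.14 with limma at a pseudocount of 0.1 or 1, and ran from -0.15 to 0.35 with a library left out. XR_002473652.1 (0.14) was at -0.21 with the library totals and -0.24 with limma at either pseudocount, and ran from -0.11 to 0.39. XR_002475690.1 (0.06) was at -0.22 with the library totals and -0.00 with no filter, and ran from -0.65 to 1.50. With a library left out, XR_002473263.1 (-0.14) ran from -0.46 to 0.18, XR_002474306.1 (-0.08) from -0.45 to 0.35, XR_002474596.1 (-0.27) from -0.62 to 0.16, XR_002474164.1 (0.49) from -0.01 to 1.13 and XR_002473865.1 (4.03) from 3.90 to 4.09.

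The calls over all lncRNAs moved more. With no filter there were 51 in the 5-library fit (30 in the main one), 56 in the 4-library fit (9) and 180 in the 3-library fit (21). DESeq2 gave 25 in the 4-library and 60 in the 3-library fit. Limma gave 14 and 5 in the 4-library fit at pseudocounts of 0.1 and 1, and 0 in the 3-library fit at both (255 and 216 at an unadjusted p under 0.05). The 3-library fit had 36 with size factors, 0 with the library totals (274 unadjusted) and 0 with XR_002469977.1 left out (266 unadjusted), an alternative chosen after seeing the data. With a library left out, calls ran from 0 to 30 in the 5-library fit and from 0 to 11 in the 4-library fit. The 5-library fit had 10 without control replicate 1, 7 without control replicate 3 and 0 without heat replicate 2 or heat replicate 3 (66 and 75 at an unadjusted p under 0.05). The 4-library fit had 0 without heat replicate 2, heat replicate 3 or control replicate 3 (90, 109 and 80 unadjusted). The filter was rerun each time a library was left out, so the number tested changed as well. In the 3-library fit, leaving out a control leaves no residual degrees of freedom, so only fold changes were computed.

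The 3-library fit holds 1 heat library, so its log2 fold changes are given without a test. That of XR_002473865.1 (4.03) was 3.69 with the library totals and 3.58 with limma at a pseudocount of 1. In the 4-library fit 1 of the 33 was called higher with no filter (XR_002471168.1). Replicate numbers are shared between groups, but same-numbered libraries did not deviate together in all pairs (correlations of -0.01, 0.003 and 0.11 over 226 lncRNAs), so they were not taken as pairs. A replicate block, with control replicate 1 alone in its block, gave 46 calls in the 5-library fit and 1 of the 33, XR_002469977.1 (log2 fold change 0.88, edgeR adjusted p = 0.00061), and 9 calls in the 4-library fit with 0 of the 33. With a minimum of 4 or 6 FPKM there would be 41 or 27 lncRNAs. The share of reads in the 33 was 8.73% of the library total in heat replicate 2, against 6.96% and 9.23% in control replicates 2 and 3. Without XR_002469977.1 in numerator and denominator it was 9.59%, against 9.46% and 13.9%.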
